A study of Mus musculus with 3 samples.

Results

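Cluster 25 was a group of 195 shallow macrophage-like cells among 26008 kept cells of the mouse limbus and iridocorneal angle. Its members were the kept cells that carry the label 25 in the deposited cell tables. Their barcodes were matched to the raw count matrices of the 3 libraries. They numbered 56 and 81 in control replicates 1 and 2 and 58 in *Angpt1*ΔNC, and no barcode of these cells occurred in more than 1 library. The authors' naming places clusters 23 to 25 together as monocytes, and the larger cluster 24, with 1575 cells, served as the reference here.

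The study measured single-cell RNA in the tissue that drains aqueous humor, in control mice and in mice without *Angpt1* in neural crest-derived cells. Control libraries carried the genotype *Angpt1* flox/flox, that is, the conditional allele without Cre, and the *Angpt1*ΔNC library carried *Angpt1* flox/flox;Wnt1Cre+. All mice were 6 weeks old, of Mixed strain and albino after crosses onto ICR, and a library was made from 2 to 3 pooled mice. The labels state that both sexes were pooled, but no control cell of clusters 22 to 25 held a UMI of *Xist*, the RNA that coats the inactive X chromosome of female cells, so sex and genotype cannot be told apart between the libraries. Wnt1-Cre acts in the neural crest lineage, which does not give rise to macrophages, so the deletion was not aimed at these cells.

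Macrophages of the eye live in the uvea, the limbus and the outflow tissues, where they take up debris, present antigen and release chemokines that recruit other leukocytes. CSF1R, the receptor for CSF1 and IL-34, maintains them, C1q and Fc receptors let them bind opsonized targets, and stimulation through Toll-like receptors switches on short-lived messages for TNF, IL-1β and chemokines. Many of these messages carry AU-rich elements in the 3′ UTR, to which proteins such as ZFP36 bind and so speed their decay. *Malat1* and *Neat1* are long noncoding RNAs that stay in the nucleus.

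Cells of cluster 25 were shallow and poor in the nuclear RNAs *Malat1* and *Neat1*. A unique molecular identifier (UMI) counts 1 captured RNA molecule, and the median cell of cluster 25 had 1456 UMIs in control replicate 1 and 1728 in control replicate 2, compared with 1321 in *Angpt1*ΔNC. Medians in cluster 24 were 6577, 6554 and 6903, with the libraries in the same order as in all series of values that follow, and cluster 25 had the lowest median of all 35 cell labels in each library. The deepest cell of cluster 25 held 2926, 4219 and 3769 UMIs, 183 of the 195 cells lay under 3000 UMIs, and 27 (13.8%) lay within 100 UMIs of the authors' minimum of 1000, against 2 of 1575 (0.127%) in cluster 24. A cell of cluster 25 showed a median of 600, 608 and 539.5 genes. In all, the cluster rests on 338260 UMIs, against 11106145 in cluster 24, so transcripts at a low level were missed in many of its cells.

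*Malat1* was nearly absent. To obtain the level of a gene, its UMIs were divided by all UMIs of the cell, scaled to 10,000 and averaged over the cells, unless a pooled level is named. The *Malat1* level in cluster 25 was 6.48, 28.8 and 9.34, against 92.3, 110 and 121 in cluster 24, with no overlap between the clusters, and it was the lowest of all 35 labels. Of the 195 cells, 138 had no *Malat1* UMI, 40 had 1 and 17 had 2 or more. Thus 178 cells (91.3%) had at most 1, compared with 11 of 1575 (0.698%) in cluster 24 and 477 of all 26008 kept cells (1.83%).

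The scarcity of *Malat1* was also seen at equal depth. After each cell was thinned to 1000 UMIs, *Malat1* was seen in 17.9%, 24.7% and 19.0% of cells of cluster 25 and in 98.6%, 99.5% and 98.0% of cluster 24. Cells of cluster 24 with under 3000 UMIs (37, 14 and 9 cells) kept *Malat1* levels of 114, 147 and 94.7. *Neat1* was also low, at 0.0999, 0.373 and 0.762 in cluster 25 against 1.97, 1.99 and 2.96 in cluster 24. *Xist* was found in 0 of the 58 *Angpt1*ΔNC cells of cluster 25, which allows a share of up to 5.17% by the limit of 3 counts and 6.16% by the exact 95% bound, while 207 of 401 *Angpt1*ΔNC cells of cluster 24 had it, or 30.9% after thinning to 1000 UMIs. The absence of *Xist* was therefore not read as a sign of sex in this cluster.

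Mitochondrially encoded RNA was similar to slightly higher, and ribosomal protein messages took a larger share of the UMIs. The median mitochondrial share per cell was 4.52%, 4.84% and 4.61% in cluster 25 against 2.95%, 3.74% and 3.89% in cluster 24. The median share of ribosomal protein messages was 20.3%, 20.5% and 24.2% against 10.7%, 11.7% and 12.1%. All 3 libraries thus gave the same order of the clusters for both shares.

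**Figure D1:**
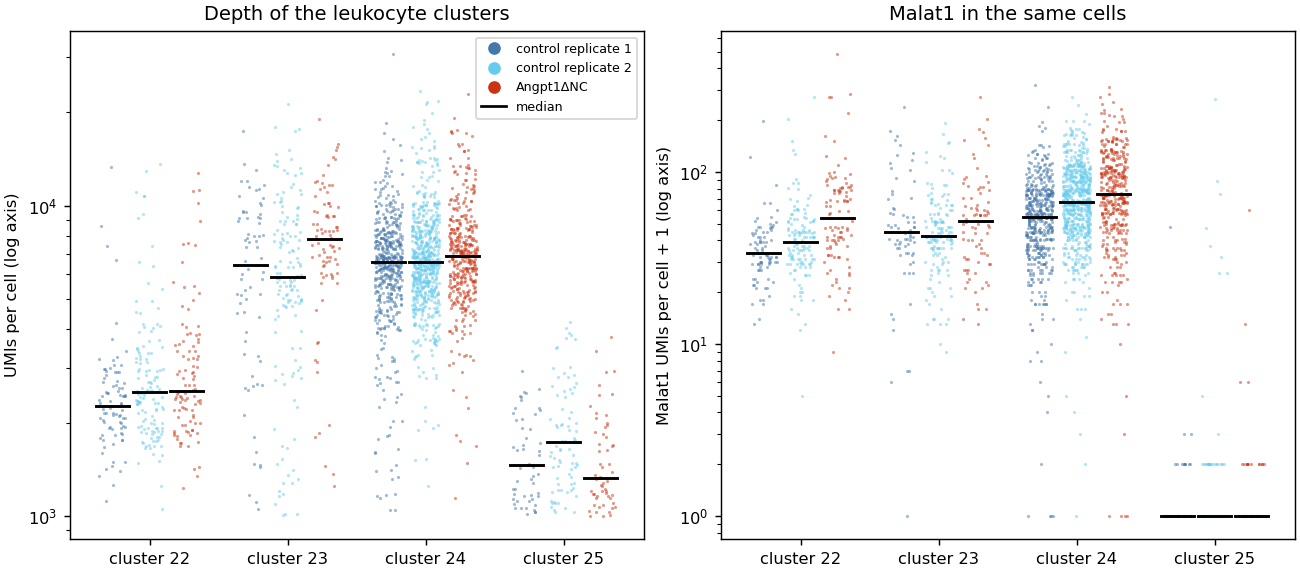
UMIs per cell (left, log axis) and *Malat1* UMIs per cell plus 1 (right, log axis) in the leukocyte clusters 22 to 25, 1 point a cell, by library, with black bars at the medians. The medians of cluster 25 lie at 1321 to 1728 UMIs, and its median *Malat1* count is 0 in every library, while almost all cells of the other 3 clusters lie well above it.

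The macrophage label held for nearly all members. Of 15 macrophage markers, a cell of cluster 25 had a median of 8, and 189 of the 195 cells had 3 or more. The summed level of the markers was 299, 307 and 307 in cluster 25 and 278, 288 and 269 in cluster 24, compared with 2.80, 2.13 and 2.91 in the limbal and corneal epithelium (clusters 4 and 5). The defining marker *Csf1r* had a level of 6.12, 4.80 and 4.6 against 5.33, 4.96 and 5.26, and the ranges of the clusters overlapped. It was seen in 57.1%, 44.4% and 39.7% of cells of cluster 25 and in 91.8%, 90.6% and 91.5% of the deeper cells of cluster 24, but at 1000 UMIs a cell the shares were 36.4% and 38.9%, with 0.0687% in the epithelium.

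Cluster 25 was compared with cluster 24 without a test, because the clusters were made from these genes. Among the 2132 genes with a level of at least 0.5 in all 3 libraries of either cluster, 102 (4.78%) were more than 2-fold higher in cluster 25 in every library and 470 (22%) were more than 2-fold lower, with 0.1 added to each level, and the median log2 ratio over all genes was -0.25. Against this background, 13 markers were compared, of which *Aif1* was higher, *Cd14* was lower and 11 were neither. *Mertk* had no UMI in cluster 25.

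Of 11 compared complement and Fc receptor genes, 0 were higher and 2 were lower in cluster 25, and the median log2 ratio was 0.13. That count of lower genes was near the 22% over all compared genes. *C1qa*, which encodes a chain of the recognition molecule of the classical complement pathway, had a level of 58.8, 65.0 and 59.2 against 47.9, 49.4 and 44.2. *C1qb* had 40.7, 45.4 and 60.6 against 39.8, 41.4 and 48.9. *Fcgr1*, the high-affinity IgG receptor, had 5.20, 3.45 and 3.25 against 2.93, 2.36 and 1.84. None of these was past 2-fold in all libraries. The 2 lower genes were *C3ar1* and *C5ar1*, the receptors for the fragments C3a and C5a. *C5ar1* had a level of 0.218, 0.967 and 0.323 against 8.08, 6.63 and 5.00, so that no library overlapped.

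*Aif1*, which encodes the calcium-binding protein IBA1, was the gene with the highest fold over all other kept cells, from 29.7 to 33.5 across libraries, and was seen in 81.0% of the cells of cluster 25. Its level of 12.8, 15.8 and 12.4 also stood above the 4.44, 5.02 and 4.65 of cluster 24. The 20 leading genes held 7 of the macrophage markers (*Aif1*, *C1qa*, *Lyz2*, *C1qc*, *C1qb*, *Tyrobp* and *Fcgr1*). The others were *Fcrls*, *Gatm*, *Ighm*, *Ptpn18*, *Fcer1g*, *Lst1*, *Pf4*, *Ctss*, *Ly86*, *Coro1a*, *Clec4a2*, *Trem2* and *Hpgd*. *Lyz2*, a lysozyme, had 90.2, 94.8 and 82.0 against 49.0, 59.4 and 48.3, and *Tyrobp*, the adaptor of several activating receptors, had 34.7, 28.8 and 31.1 against 22.8, 23 and 20.6.

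Genes of resident macrophages were seen, and most of those of monocytes were not. *Pf4* had a level of 27.1, 24.3 and 24.1 in cluster 25 and 24.4, 25.8 and 23.6 in cluster 24. *Mrc1*, the mannose receptor, had 5.82, 4.03 and 3.55 against 4.16, 4.39 and 4.99. Of 10 compared genes of perivascular and tissue-resident macrophages, 1 was higher, *Igfbp4* with 5.59, 4.45 and 3.75 against 2.00, 1.73 and 1.46, and 0 were lower (median log2 ratio 0.14). *Lyve1*, a hyaluronan receptor of perivascular macrophages, stood at 0, 0.256 and 0.285 against 0.299, 0.314 and 0.443, and *Timd4* had no UMI. Of 16 genes of classical and nonclassical monocytes, 13 had no UMI in cluster 25, *Ly6c2*, *Ccr2*, *Plac8* and *Chil3* among them, and the summed level of all 16 was 0, 0.354 and 0.589. The summed level in cluster 24 was 1.5, 1.12 and 1.18, so both clusters are called macrophage-like here.

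Genes shared with microglia showed a mixed picture. *Fcrls* had a level of 9.72, 6.97 and 7.77 against 3.69, 4.21 and 5.23 in cluster 24, *Trem2*, a lipid-sensing receptor, 4.08, 4.33 and 4.96 against 2.87, 4.07 and 3.46, and *Cst3*, an inhibitor of cathepsins, 206, 165 and 135 against 124, 132 and 97.5. *Cx3cr1*, the fractalkine receptor, had 0.162, 0.848 and 1.09 against 0.947, 0.979 and 0.958. *Sall1*, a defining microglial transcription factor, had no UMI. Of 8 compared genes of this list, 0 were higher and 1 was lower, *Selplg* (median log2 ratio 0.48).

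No MHC class II gene passed the 2-fold rule in either direction. *Cd74*, the invariant chain, had a level of 157, 134 and 107 against 158, 153 and 110. *H2-Aa* had 29.5, 32.5 and 27.0 against 44.1, 45.2 and 39.3. The median log2 ratio of the 7 compared genes was -0.51. Among 15 dendritic cell genes, 8 had no UMI, and the single one compared, the Langerhans cell lectin *Cd207*, was lower.

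*Apoe*, which carries lipids between cells, had 693, 523 and 310 in cluster 25 and 279, 334 and 200 in cluster 24. Of 15 compared lysosome and lipid genes, 0 were higher and 3 were lower, namely the cholesterol exporter *Abca1*, the protease *Ctsl* and the fatty acid carrier *Fabp5* (median log2 ratio -0.88). *Abca1* stood at 0.146, 0.228 and 0.188 against 1.12, 1.29 and 1.43. Of 8 scavenger and efferocytosis genes, 0 were higher and 2 were lower, *Msr1* and *Havcr2* (median log2 ratio -0.83). Of 6 iron genes, 1 was lower, *Hmox1*, the heme-degrading enzyme, with 2.23, 1.44 and 2.20 against 14.1, 12.6 and 10.9. *Fth1*, the ferritin heavy chain, had 203, 232 and 238 against 407, 377 and 348. The counts of lower genes in these lists were near the 22% of all compared genes that were lower.

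Inflammatory messages were low in cluster 25. Of 21 compared chemokine and cytokine genes, 15 were lower, 0 were higher and 6 were neither, with a median log2 ratio of -2.84 against -0.25 over all genes. *Cxcl2*, which attracts neutrophils, had a level of 2.87, 24.4 and 20.8 against 252, 206 and 292. *Il1b* had 2.71, 7.06 and 7.08 against 37.9, 31.8 and 41.4. *Ccl2*, which attracts monocytes, had 2.41, 6.14 and 5.94 against 54.7, 43.4 and 43.0. The levels of the clusters did not overlap for any of these genes, and control replicate 1 was the lowest library in cluster 25 each time.

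*Tnf* had 17 UMIs in all of cluster 25. Its level was 0.125, 0.855 and 0.723 against 19.7, 13.6 and 12.2, and at 1000 UMIs a cell it was seen in 1.79%, 6.17% and 6.90% of cells against 69.3%, 53.7% and 53.1%. *Ccl4*, another chemokine gene, had 1.03, 2.00 and 11.2 against 65.0, 32.4 and 78.8, *Il10*, an anti-inflammatory cytokine, 0, 0.207 and 0.454 against 3.20, 4.58 and 4.29, and *Il1rn*, the antagonist of the IL-1 receptor, 0.682, 0.879 and 0.968 against 14.3, 11.2 and 16.3. Both stimulating and restraining members were therefore among the 15 lower genes. The chemokines *Ccl5*, *Ccl9*, *Ccl12*, *Ccl24*, *Cxcl9* and *Pf4* did not pass the 2-fold rule in all libraries.

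*Cd14*, the co-receptor for lipopolysaccharide and the 1 lower gene of the macrophage markers, had 5.08, 8.47 and 4.24 against 61.8, 58.4 and 52.7. *Tlr2*, a Toll-like receptor, had 0.167, 0.408 and 0.213 against 7.28, 7.37 and 6.63, and *Ccr1*, a chemokine receptor, had 0.236, 0.104 and 0.600 against 5.40, 6.09 and 10.6. In no library did these levels overlap with cluster 24. Of the 15 genes with the largest decrease by the rule for named genes, 4 had no UMI in cluster 25 (*Il12b*, *Kcnk13*, *Tnfsf9* and *Phldb1*), 6 had 1 to 3 UMIs (*Mir155hg*, *Ch25h*, *Tnip3*, *Edn1*, *Clec4e* and *Rab7b*) and 5 had more (*Ccr1*, *Tlr2*, *Tnf*, *Il1rn* and *Ccrl2*). Against a floor of 3 counts over the whole cluster, the pooled level of *Il12b*, a subunit of IL-12, was at least 23.6-fold lower and that of the potassium channel gene *Kcnk13* at least 16.4-fold lower. The cells of cluster 24 with under 3000 UMIs held no *Il12b* in any library, so that its log2 ratio against them was 0, while *Kcnk13* had 2.47, 1.08 and 2.42 there.

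Transcription factors and stress genes were also low. Of 13 compared macrophage transcription factors, 6 were lower, *Spi1*, *Cebpa*, *Cebpb*, *Runx1*, *Id2* and *Zeb2*, and 0 were higher (median log2 ratio -1.81). *Spi1*, which encodes the lineage factor PU.1, had 4.72, 6.51 and 3.12 against 14.3, 14.0 and 11.6, and *Cebpb* had 5.15, 10.8 and 6.83 against 47.9, 44.1 and 39.5. *Maf* went the other way in level, at 0.987, 0.904 and 2.16 against 0.369, 0.415 and 0.661, and was not past the rule. Of 13 genes that respond to tissue dissociation, 6 were lower and 0 were higher (median log2 ratio -1.99). *Zfp36* had 0.328, 1.91 and 1.94 against 14.0, 12.2 and 15.3 and *Junb* had 2.48, 12.2 and 8.95 against 47.2, 36.3 and 35.8. Growth and vascular factors gave 7 lower and 0 higher of 11 (median log2 ratio -2.77), with *Plau*, the urokinase gene, at 0.260, 0.550 and 0 against 7.18, 5.07 and 3.29.

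**Figure D2:**
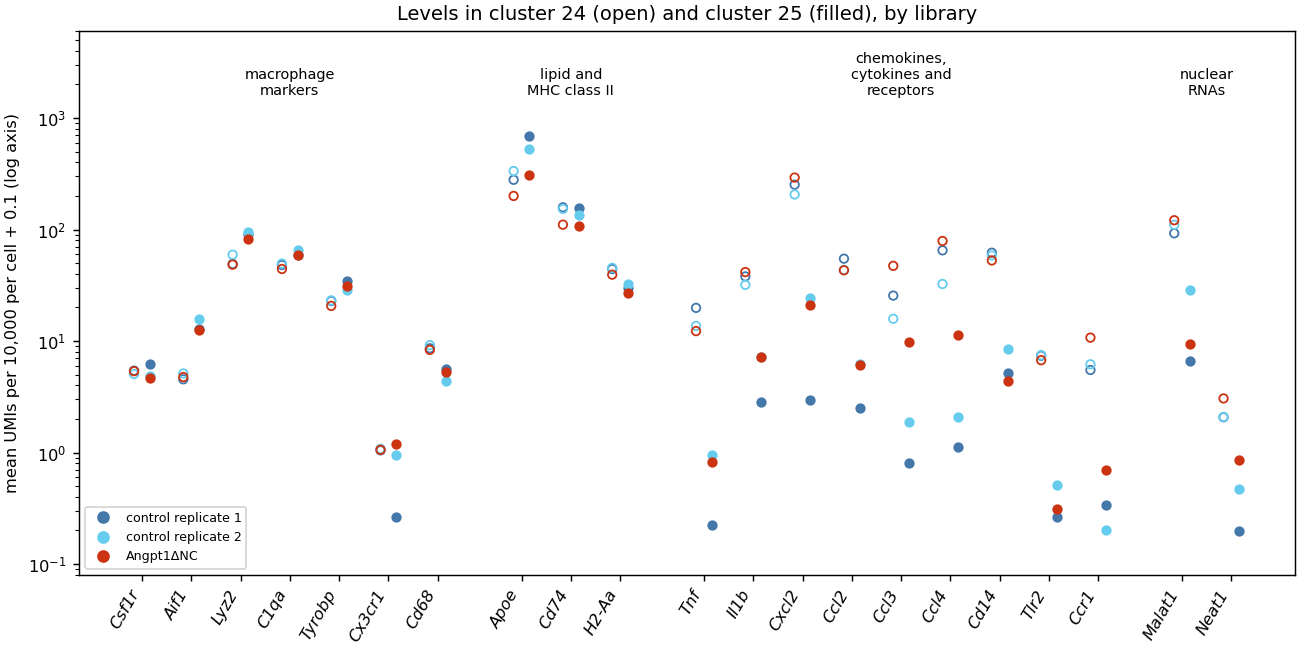
Levels (mean UMIs per 10,000 per cell plus 0.1, log axis) of 21 genes in cluster 24 (open circles) and cluster 25 (filled circles), 1 circle a library. Most of the selected macrophage markers and the MHC class II genes lie at similar heights in both clusters. Among these markers, *Aif1* is higher in cluster 25 and *Cx3cr1* is lower there in control replicate 1. *Cd14*, also a macrophage marker, is drawn with the inflammatory genes and is lower. Inflammatory genes and nuclear RNAs are lower in cluster 25 in every library, as for *Tnf* (0.125 to 0.855 against 12.2 to 19.7).

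Part of the higher genes came from 3 cells rich in mast cell genes. The first 5 of the 15 named ones, *Tpsb2*, *Mcpt4*, *Tpsab1*, *Cma1* and *Cpa3*, encode proteases of mast cells, and their UMIs came from 1 cell in each library. These cells held 286, 284 and 142 UMIs of a list of 6 mast cell genes, none had 3 macrophage markers, and their *Malat1* counts were 47, 73 and 59. The other 192 cells held no UMI of the list or of *Tpsab1*. Without the 3 cells, 99 genes were higher and 495 lower (an alternative chosen after seeing the data).

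The other named higher genes were *Bmyc*, *Ntpcr*, *Ighm*, *Bin2*, *Cebpzos*, *Hpgd*, *Phf11b*, *Gpsm3*, *Smagp* and *Fdps*. *Bmyc*, a relative of *Myc*, had 2.64, 1.35 and 1.03 against 0.178, 0.190 and 0.105. *Hpgd*, which inactivates prostaglandins, had 5.12, 3.09 and 4.47 against 0.565, 0.885 and 0.757. *Ighm*, the constant region of the IgM heavy chain, had 4.71, 3.23 and 3.31 against 0.743, 0.739 and 0.613. At 1000 UMIs a cell, *Ighm* was seen in 30.3% of cells of cluster 25, 6.29% of cluster 24, 18.4% of cluster 22 (B and T cells) and 0 of the epithelial cells. Most other lymphocyte genes were not seen, since 14 of the 18 genes of the T, NK and B cell list, *Cd79a* and *Ms4a1* among them, had no UMI. *Cd3g*, *Cd4* and *Cd79b* did have UMIs, and the summed level of the list was 4.95, 3.65 and 3.63. Of 82 compared ribosomal protein genes, 1 was higher and 0 were lower by the 2-fold rule, with a median log2 ratio of 0.89. The 12 compared mitochondrial genes had a median log2 ratio of 0.32 and none passed.

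Genes of other tissues were also summed. The summed level of 13 epithelial genes was 3.44, 1.42 and 1.63 in cluster 25 and 1.17, 1.00 and 1.20 in cluster 24. Stromal genes summed to 3.12, 5.19 and 3.23 against 1.47, 1.70 and 1.56, pigment cell, glial and mural genes to 7.75, 3.15 and 2.71 against 1.86, 2.38 and 1.55, and endothelial genes to 1.17, 0.346 and 0.793 against 0.334, 0.420 and 0.452. Thus the first 3 sums were above cluster 24 in every library and the endothelial sum in all but control replicate 2. Of these lists, 4 of 13 epithelial genes had no UMI in cluster 25 (*Krt8* and *Krt19* among them), 2 of 15 stromal (*Pdgfrb* and *Clec3b*), 5 of 15 pigment cell, glial and mural (*Rpe65* and *Sox10* among them) and 5 of 10 endothelial (*Pecam1* and *Kdr* among them), so the others of each list were seen. *Dcn*, a stromal proteoglycan gene and the 1 compared on its list, was higher, at 1.35, 1.95 and 1.68 against 0.50, 0.548 and 0.690, with 0.487, 0.982 and 2.11 in the cells of cluster 24 under 3000 UMIs. The part of this RNA in the other results was not tested. None of 7 neutrophil genes had a UMI. *Stmn1* was higher among the cell cycle genes, at 3.25, 2.81 and 6.37 against 0.971, 1.12 and 0.996, while *Top2a* had no UMI. Of 8 interferon-stimulated genes, *Ifi27l2a* was higher and *Rsad2* was lower.

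Within the cluster, the 17 cells with 2 or more *Malat1* UMIs (3, 10 and 4 by library) differed from the 178 others. Their summed level of the macrophage markers was 156 against 319, and their *Csf1r* level was 0.986 against 5.51. *C1qa* stood at 32.5 against 64.3 and *Apoe* at 177 against 540. *Fos* stood at 22 against 1.19 and *Dcn* at 7.30 against 1.16, and their median share of ribosomal protein messages was 11.8% against 22.2%. *Tnf* stood at 3.33 against 0.346 and was seen in 5 of the 17 cells and 6 of the 178. In the 178 cells the *Tnf* level was 0, 0.637 and 0.302 by library. The 3 mast cell gene cells were among the 17. With these 17 cells left out, also chosen after seeing the data, 110 genes were higher and 546 were lower than in cluster 24.

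Genes with longer transcripts were more often lower in cluster 25. The transcript features come from GENCODE M21 on build GRCm38, in which all 2132 compared genes had an entry and 2105 were coding with a 3′ UTR. Each coding gene was represented by a single annotated transcript with a 3′ UTR, that with the longest coding sequence and, among equals, the greatest length. Which isoforms these cells held was not determined. The genes were split by transcript length into 4 bins of equal size. In the shortest bin, 345 to 1232 bases, 6.07% of genes were lower and 10.4% were higher in cluster 25, and the median log2 ratio was 0.71. In the longest bin, 3276 to 23495 bases, 40.9% were lower and 1.33% were higher, and the median was -1.33. The bins between had medians of -0.03 and -0.63. Without the ribosomal protein genes, the shortest bin had a median of 0.66.

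The order by length held in each library. From the shortest to the longest bin, the medians were 0.72, -0.00, -0.63 and -1.55 for control replicate 1. Control replicate 2 gave 0.64, -0.01, -0.52 and -1.08, and *Angpt1*ΔNC gave 0.71, -0.01, -0.67 and -1.33. Against the cells of cluster 24 with under 3000 UMIs, the longest bin had medians of -1.66, -1.31 and -1.47, so cells nearer in depth gave the same picture. A slope by length was not particular to cluster 25. The B and T cells of cluster 22 over cluster 24 had medians of 0.34, 0.25 and 0.40 in the shortest bin and -0.36, -0.41 and -0.51 in the longest, and for cluster 25 over cluster 22 these were 0.33, 0.34 and 0.34, then -0.72, -0.49 and -0.68. Cluster 23 over cluster 24 had medians of -0.01, 0.07 and 0.03 in the shortest bin and -0.15, -0.02 and -0.30 in the longest.

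**Figure D3:**
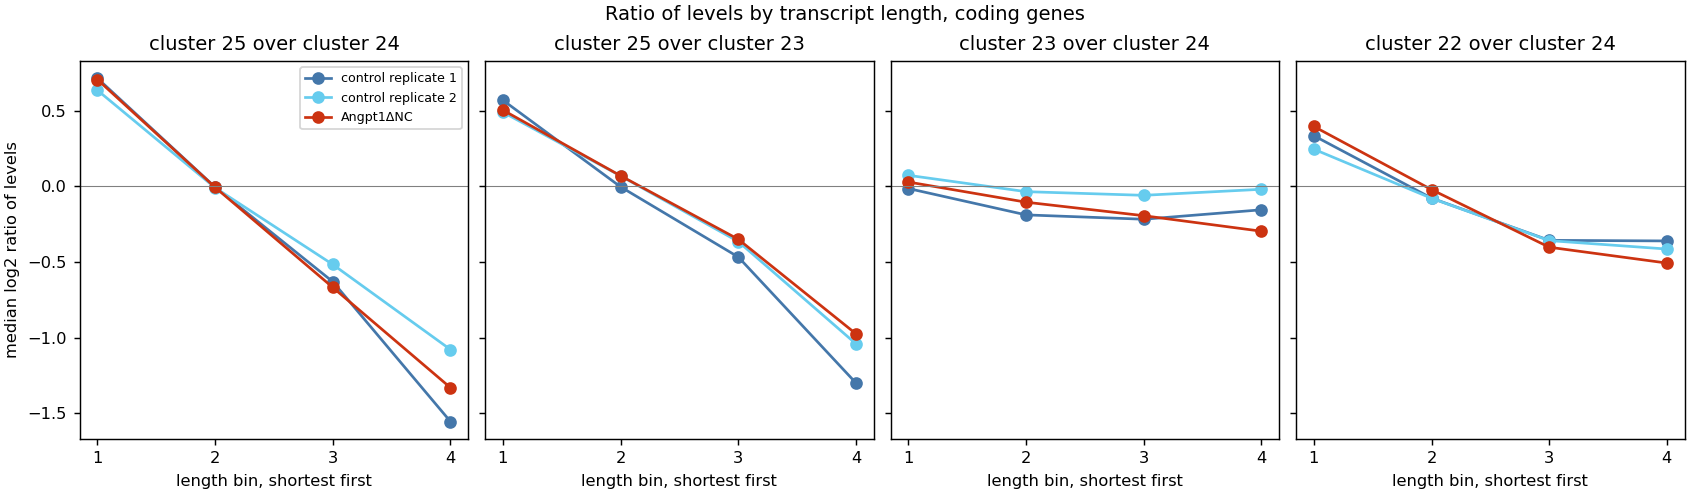
Median log2 ratio of levels by bin of transcript length (shortest first, coding genes), for cluster 25 over 24, 25 over 23, 23 over 24 and 22 over 24, 1 line a library. The ratio falls from 0.64 to 0.72 down to -1.08 to -1.55 for cluster 25 over 24 and from 0.25 to 0.40 down to -0.36 to -0.51 for cluster 22 over 24, and stays between -0.30 and 0.07 for cluster 23 over 24.

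The heptamer TATTTAT is a core of AU-rich elements, and its copies, overlapping ones included, were counted on the transcript strand of the 3′ UTR. The windows below were chosen because their genes were among the lower chemokines and cytokines, and each spans 30 bases with the heptamer in capitals.
*Tnf*: TATTTATTATTTATTTATTATTTATTTATt
*Cxcl2*: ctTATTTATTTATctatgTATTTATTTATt
*Il1b*: cttaccTATTTATTTATgTATTTATtgatt
*Ccl4*: tattatttctatTATTTATgttttagttat
The *Tnf* window lies at chr17:35199677-35199706 on the minus strand, in exon 4 of 4, in a 3′ UTR of 764 bases with 8 copies. The *Cxcl2* window lies at chr5:90905325-90905354 on the plus strand, in exon 4 of 4, in a 3′ UTR of 734 bases with 7 copies. The *Il1b* window lies at chr2:129364802-129364831 on the minus strand, in exon 7 of 7, in a 3′ UTR of 459 bases with 3 copies, and the *Ccl4* window at chr11:83664541-83664570 on the plus strand, in exon 3 of 3, with 1 copy in the 3′ UTR. *C1qa*, *Aif1* and *Apoe*, which were not lower, had 0 copies.

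Over all 2105 coding genes, 498 (23.7%) had the heptamer in the 3′ UTR. It was present in 188 of the 464 lower genes (40.5%), in 14 of the 100 higher genes (14.0%) and in 19.2% of the genes that were neither. Of genes with the heptamer, 37.8% were lower, compared with 17.2% of those without. From the shortest to the longest of 4 bins of 3′ UTR length, 20, 65, 162 and 251 genes had the heptamer, so shares were also taken within these bins. In that order, genes with the heptamer were lower in 40.0%, 35.4%, 40.1% and 36.7% of cases, and genes without it in 7.50%, 15%, 23.4% and 30.6%. The gap thus narrowed as 3′ UTRs became longer. Genes that were low without it include *Ccr1*, *Tlr2*, *Il1rn*, *Tnip3*, *Clec4e*, *Phldb1* and *Rab7b*, with 0 copies each. These shares describe the genes and were not tested.

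The share of cluster 25 was similar in the 3 libraries. Of kept cells, it made up 0.617% (exact Clopper-Pearson 95% interval 0.466 to 0.801) for control replicate 1, 0.797% (0.634 to 0.990) for control replicate 2 and 0.856% (0.651 to 1.11) for *Angpt1*ΔNC. The ratio of *Angpt1*ΔNC to the control mean was 1.21, with an SD of the controls of 0.18 on that scale, and the interval of *Angpt1*ΔNC overlapped both others. Of the leukocyte clusters 22 to 25, it held 7.67%, 7.98% and 8.92%, and of clusters 24 and 25 together 9.81%, 10.9% and 12.6%. Among cells with at least 2000 UMIs the ratio was 0.788, from 14, 26 and 11 cells. A comparison of 2 libraries with 1 cannot reach a p of 0.05 in an exact permutation test, so none was made, and the intervals cover counting error only.

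*Angpt1* itself could not be checked in these cells, which had 0, 2 and 0 UMIs. In the clusters outside 22 to 25 its pooled level was 0.399, 0.425 and 0.00417, so the *Angpt1*ΔNC library matched its label. A pooled level is the summed UMIs of a gene per 10,000 summed UMIs of the group of cells, and it is the scale of all genotype values below. The summed counts of cluster 25 in the 2 control libraries and the *Angpt1*ΔNC library were tested with edgeR's quasi-likelihood test over 1271 genes.

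By genotype, 21 genes (1.65%) were higher and 4 (0.315%) were lower in *Angpt1*ΔNC, and 15 of the 21 were ribosomal protein genes. Of 81 tested ribosomal protein genes, 76 had a log2 difference above 0, with a median of 0.51 against -0.02 over all genes. *Rps18* had a pooled level of 16.9, 16.6 and 41.7 (log2 difference 1.41 ± 0.17 SE, edgeR adjusted p = 0.00968), and *Rps27* had 20.1, 23.7 and 48.9 (1.25 ± 0.18 SE, edgeR adjusted p = 0.0213). The pooled share of all ribosomal protein messages was 23.3%, 22.4% and 30.4% in cluster 25. It was also highest in *Angpt1*ΔNC in cluster 24 (12.4%, 14.1% and 14.8%), in clusters 22 and 23 (22.7%, 23.2% and 26.1%) and in all remaining clusters (14.7%, 15.6% and 18.8%).

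Most of the called genes had the same direction elsewhere. Of the 25 genes, 24 had *Angpt1*ΔNC on the same side of both controls in cluster 24 as well, 23 in clusters 22 and 23 and 22 in the remaining clusters. The share of all tested genes with this pattern was not taken, so these counts have no background. In the remaining clusters *Apoe* (32.4, 40 and 42.1) and *Cbr2* (1.07, 1.11 and 2.52) were highest in *Angpt1*ΔNC, opposite to cluster 25. *Sh3bgrl3* was lowest there in *Angpt1*ΔNC (2.62, 2.22 and 2.21), also opposite to cluster 25. *Anxa5* was lowest in *Angpt1*ΔNC there as well (7.01, 7.15 and 3.13), as in cluster 25. Of the 25, 15 were ribosomal protein genes, whose pooled share was highest in *Angpt1*ΔNC in every group of cells. Where the spread was estimated over clusters 22 to 25 together, 1 gene, *Gm10260*, was left, and without the 10% of cells with the most RNA of other lineages 64 were called. In the main fit, with 1 residual degree of freedom and 1 *Angpt1*ΔNC library, only the 2 control pools inform the spread behind the p-values. edgeR also draws the spread of each gene toward that of all genes. A small SE or p-value can therefore stand beside controls that differ widely, and the spread between *Angpt1*ΔNC pools was not measured.

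*Gm10260* had a pooled level of 8.77, 9.21 and 0 in cluster 25, at least 27.5-fold lower in *Angpt1*ΔNC against a floor of 3 counts (edgeR adjusted p = 0.00198). Its level in cluster 24 was 3.76, 5.39 and 0.0305, and it was near 0 throughout the *Angpt1*ΔNC library. Of the 531 words of 31 bases in its transcript, 365 (68.7%) also occur in *Rps18*, so reads of the 2 genes may be split by the counting and both values are uncertain. Their summed pooled level was 25.6, 25.8 and 41.7 in cluster 25, 11.4, 14.3 and 18.5 in cluster 24.

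Among macrophage genes, *H2-Eb1*, a β chain of MHC class II, was higher in *Angpt1*ΔNC and *Apoe* was lower. *H2-Eb1* had 10.3, 17.5 and 37.3 (log2 difference 1.49 ± 0.29 SE, edgeR adjusted p = 0.0425), compared with 20.2, 23.4 and 39.1 in cluster 24 and 30.7, 30.3 and 77.7 in clusters 22 and 23. No other gene of the 7 tested for MHC class II was called. *Apoe* had 665, 568 and 305 (log2 difference -0.92 ± 0.09 SE, edgeR adjusted p = 0.00297), compared with 286, 334 and 193 in cluster 24. *Anxa5*, an annexin that binds phosphatidylserine, had 5.85, 5.65 and 1.31 (log2 difference -2.03 ± 0.41 SE, edgeR adjusted p = 0.0482) and was also lowest in *Angpt1*ΔNC in cluster 24, at 11.6, 11.3 and 5.15.

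*Cbr2*, a carbonyl reductase found in resident macrophages, had 2.14, 2.41 and 0.218 (log2 difference -3.24 ± 0.65 SE, edgeR adjusted p = 0.0451), with 2 UMIs in *Angpt1*ΔNC, and 1.28, 1.49 and 0.986 in cluster 24. *Sh3bgrl3*, a small thioredoxin-like protein gene, had 8.10, 8.0 and 19.4 (log2 difference 1.36 ± 0.23 SE, edgeR adjusted p = 0.0305). *Serpinb1a*, a protease inhibitor gene, had 1.01, 0.508 and 5.66, but all of its UMIs came from 1 cell in each library, with 9, 8 and 52 UMIs. These were the 3 cells rich in mast cell genes, and the other 192 cells held none, so the call does not describe the macrophage-like cells.

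Of 15 tested chemokine and cytokine genes, *Ccl3* and *Ccl4* were called, both higher in *Angpt1*ΔNC. *Ccl3* had 0.675, 1.40 and 7.08 (log2 difference 2.78 ± 0.46 SE, edgeR adjusted p = 0.0305), from 3, 12 and 6 cells, and 24 of its 65 *Angpt1*ΔNC UMIs came from 1 cell. *Ccl4* had 0.787, 1.71 and 7.30 (log2 difference 2.56 ± 0.47 SE, edgeR adjusted p = 0.0425), and 49 of its 67 *Angpt1*ΔNC UMIs came from 1 of 5 cells. Without control replicate 1 the log2 differences were 2.26 for *Ccl3* and 2.01 for *Ccl4*, and without control replicate 2 they were 3.48 and 3.31. *Ccl4* was not called without the 17 cells with 2 or more *Malat1* UMIs, at a log2 difference of 2.55 (edgeR adjusted p = 0.0909), and nor was *Cbr2*, at -3.15 (edgeR adjusted p = 0.0668). *Cbr2*, *H2-Eb1* and *Apoe*, described above, were the calls in the other macrophage lists. The lists of transcription factors (6 tested), complement and Fc receptors (9), interferon-stimulated genes (6), dissociation stress (11), microglial genes (6) and iron genes (5) gave none. Over all tested genes, 1.65% were called higher and 0.315% lower, so lists of this size would rarely hold a call.

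**Figure D4:**
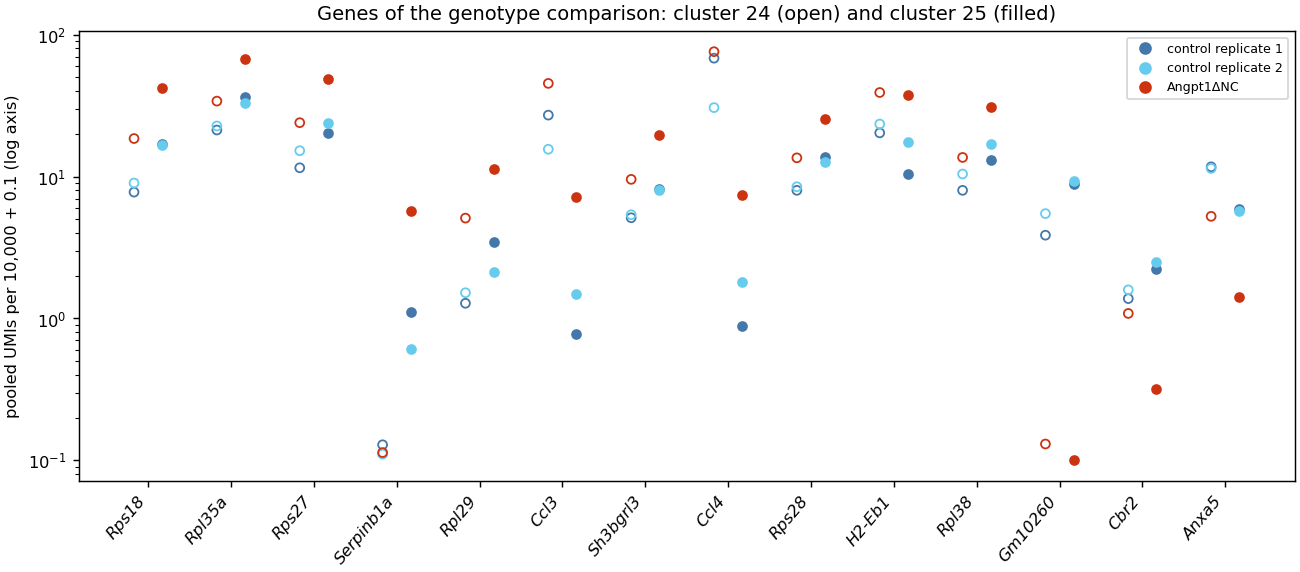
Pooled levels (UMIs per 10,000 summed UMIs plus 0.1, log axis) of the 14 named genes of the genotype comparison in cluster 24 (open circles) and cluster 25 (filled circles), 1 circle a library. In cluster 25 the *Angpt1*ΔNC library lies above both controls for 11 genes and below both for *Gm10260*, *Cbr2* and *Anxa5*, and in cluster 24 it takes the same side for all of them but *Serpinb1a*. The share of all tested genes with the same side in both clusters was not taken.

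The genotype difference in cluster 25 was also tested against that in cluster 24. Of 8740 genes, the difference in cluster 25 minus that in cluster 24 was called above 0 for 1 (0.0114%), *Ccl4*. It was called below 0 for 1 (0.0114%), *Malat1*. For *Ccl4* the pooled levels in cluster 24 were 68.2, 30.5 and 75.8, and the difference between the clusters was 1.66 ± 0.295 SE on the log2 scale (edgeR adjusted p = 0.000343). In cluster 25 the controls had *Ccl4* at 0.787 and 1.71, the reverse of their order in cluster 24. The gap between the controls in this contrast was thus wider than the tested difference for *Ccl4*. For *Malat1* the pooled level was 6.75, 39.1 and 10.1 in cluster 25, so the *Angpt1*ΔNC library lay between the controls, and 87.1, 103 and 114 in cluster 24. Without the 17 cells with 2 or more *Malat1* UMIs, the difference for *Ccl4* was 1.59 (edgeR adjusted p = 0.169). The same choice gives no check of *Malat1*, whose own counts picked the cells.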

How the data were processed

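The deposited matrices hold raw UMI counts per gene and called cell, made by the authors without normalization. The submitters' processing notes name Cell Ranger 2.1.1, Seurat 3.1.3 and build mm10, while the matrix headers name software version 3.0.2. The authors kept cells with at least 200 genes, 1000 UMIs and at most 10% mitochondrial UMIs, removed doublets with scDblFinder, so no doublet caller was run here, and clustered integrated values (5000 variable genes, 20 dimensions, resolution 0.5). Their deposited tables of integrated natural log values, some below 0, were used for cluster labels alone. Kept cells held 76981606, 80346829 and 66484181 UMIs in control replicate 1, control replicate 2 and *Angpt1*ΔNC, over 31053 genes.

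Levels, shares and thinning (seed 1) were computed with Python 3.11.15, numpy 2.4.6, pandas 2.3.3 and scipy 1.17.1, and figures with matplotlib 3.10.9. Summed counts were tested with edgeR 4.0.16 in R 4.3.3 (TMM factors, filterByExpr and the quasi-likelihood test, with p adjusted by Benjamini-Hochberg and a threshold of 0.05), tested on simulated data first. The interaction of genotype and cluster had the library as a term. Named are the 20 leading genes over all other kept cells, the 15 per direction against cluster 24 with the largest smallest ratio over libraries, up to 12 per direction by adjusted p past a log2 difference of 1, and list members, of which *Apoe* was called with a smaller difference. Ribosomal, mitochondrial and unnamed predicted genes were counted but not named in the first 2. Members, lists and tests were chosen with earlier results of these data known. Alternatives were median of ratios size factors, DESeq2 1.42.0, no filter, a shared spread, subsets of cells, other denominators, another added value and leaving out libraries. Free RNA was not removed from the counts.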

Additional observations from a re-analysis of the deposited data

Results flagged for a closer look

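*Ccl4* stood out because its genotype difference was larger in cluster 25 than in cluster 24, by 1.66 ± 0.295 SE on the log2 scale (edgeR adjusted p = 0.000343). In cluster 25, 49 of its 67 *Angpt1*ΔNC UMIs came from 1 cell. The controls also differed, with pooled *Ccl4* levels of 0.787 and 1.71 in cluster 25 and 68.2 and 30.5 in cluster 24. Their gap in this contrast was wider than the tested difference. *Malat1* stood out because its genotype difference in cluster 25 minus that in cluster 24 was below 0, at a log2 value of -1.05 ± 0.227 SE (edgeR adjusted p = 0.0178). The ratio of its pooled level in *Angpt1*ΔNC to the control mean was 0.442 in cluster 25 and 1.2 in cluster 24. In cluster 25 it had 60, 615 and 93 UMIs in control replicate 1, control replicate 2 and *Angpt1*ΔNC, of which 266 in control replicate 2 came from 1 cell. The adjusted p of *Malat1* was 0.67 with median of ratios size factors and 0.125 with no filter on low counts.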

How the results depend on the processing

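The 25 genotype calls in cluster 25 became 11 with DESeq2 (1158 genes had no adjusted p), 1 with a spread shared over clusters 22 to 25, 64 without the cells with the most RNA of other lineages, 16 without the cells with 2 or more *Malat1* UMIs and 0 of 130 testable genes in male-typed cells alone (3, 10 and 3 cells), where 12 passed an unadjusted p of 0.05. The other alternatives gave 17 to 36. In male-typed cells the direction turned for *Rpl35a* (log2 -0.057) and *H2-Eb1* (log2 -6.73), neither called. Over the 14 named genes, 105 of 136 alternative values kept their sign and were past the threshold or had no test, 29 kept the sign alone and 2 turned. The 2 calls of the difference between clusters became 1 with median of ratios size factors, 1 with no filter, 1 without cells with 2 or more *Malat1* UMIs (0 shared) and 0 in male-typed cells by edgeR, where 7 passed an unadjusted p of 0.05. Against cluster 24, the 102 higher genes became 31 with 0.5 added and 66 in cells thinned to 2000 UMIs, and the 470 lower genes became 296 with 0.5 added. Leaving out 1 library, which asks for the rule in fewer libraries, gave 144 to 223 higher (223 without control replicate 2, 163 without *Angpt1*ΔNC) and 532 to 604 lower. The other alternatives gave 79 to 142 higher and 406 to 546 lower. Similar counts did not always mean the same genes. Against the cells of cluster 24 under 3000 UMIs, 57 of the 102 higher and 286 of the 470 lower genes recurred. In cells thinned to 2000 UMIs, 29 of the 102 and 335 of the 470 recurred. Of 300 alternative values of the 30 named genes, 289 kept their sign, 11 were at 0 and 0 turned. The share ratio of 1.21 was 0.788 in cells with at least 2000 UMIs, and 1.07 to 1.39 without 1 control. No paired comparison of the genotypes was possible, because there was 1 *Angpt1*ΔNC library and the sample labels used here give no pairs of libraries. Alternatives that leave out mast cell gene cells or *Malat1* cells, thin to 1000 UMIs or use cluster 24 cells under 3000 UMIs were chosen after seeing the data. Depth was low, with 42, 55 and 47 cells of cluster 25 under 2000 UMIs.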

Other observations

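Cells with at most 1 *Malat1* UMI also occurred elsewhere. Outside cluster 25, they made up 76 of 231 cells (32.9%) of cluster 1, the retinal pigment epithelium by the authors' naming, and 96 of 562 cells (17.1%) of cluster 7, the ciliary epithelia. Cluster 22, the B and T cells, had 0 of 327 such cells at a median depth of 2267, 2500 and 2531 UMIs in control replicate 1, control replicate 2 and *Angpt1*ΔNC.

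Hemoglobin messages differed between the macrophage clusters and between libraries. The level of *Hbb-bs* was 0.423, 0.235 and 0.699 in cluster 25 and 14.3, 2.37 and 96.6 in cluster 24, with the same order of libraries for *Hba-a1* in cluster 24 (5.39, 1.17 and 25.7). In the cells of cluster 24 with under 3000 UMIs, *Hbb-bs* stood at 0.507, 0 and 0.635.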
